A study of Oryza sativa with 35 samples.

Results

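Inflorescence meristems of the rice cultivar Koshihikari were compared between tissue code R4 and tissue code R2, to describe which loci rise and which fall at that step. The comparison was made of the 8 libraries that the labels call Koshihikari R4 (3 libraries, replicates 2, 3 and 4) and Koshihikari R2 (5 libraries, replicates 1 to 5), out of 35 in the series. Libraries were made by CEL-Seq2, which copies the 3′ end of polyadenylated RNA and counts molecules by unique molecular identifiers (UMIs), so that 1 UMI stands for 1 captured molecule. The other libraries are 5 of Koshihikari R1, 3 of Koshihikari R5, and 8, 8, 1 and 2 of NIL-Gn1, by its name a near-isogenic line at the grain number locus Gn1, at R1, R2, R4 and R5. All plants were grown at 70% humidity in days of 10 h light at 27 °C and nights of 14 h at 25 °C. The labels do not define the tissue codes, give no age or further genotype, and do not tell whether each library is a plant of its own; every p-value below therefore refers to library-to-library spread, part of which may be technical.

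A rice inflorescence meristem lays down branches and then gives way to spikelets, the units that bear the flowers. ALOG proteins such as TAWAWA1 (TAW1) are DNA-binding proteins, and TAW1 is known to prolong branching and delay spikelet formation. SPL transcription factors, many of them restrained by the microRNA miR156, and MADS-box proteins of the AP1/FUL type act in the same developmental window, and gibberellin, auxin and cytokinin shape meristem growth around it.

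The R4 libraries held 109322, 115991 and 106508 UMIs, and the R2 libraries 104072, 97226, 209653, 82731 and 82176. Log2 totals did not separate the groups (exact permutation test, two-sided, p = 0.946), and the smallest p that 56 assignments allow is 0.0179. Thinned to an equal 82176 UMIs, R4 libraries held 12147 ± 83.7 detected loci (SD, n = 3) and R2 libraries 12580 ± 181 (n = 5). The difference of -432 loci reached that smallest exact p of 0.0179, and without R4 replicate 4 or R2 replicate 4 it was -385 (exact p = 0.0952) and -458 (exact p = 0.0571). R2 replicate 1 stood apart from the other R2 libraries: its counts differed from theirs with a chi-square per degree of freedom of 2.97 to 3.22, against 1.37 to 1.87 for all other pairs within R4 or within R2. The meristem homeobox gene OSH1, at 195 ± 64.1 CPM in R4 and 252 ± 90.4 CPM in R2, and RFL, the rice relative of LEAFY, at 166 ± 49.4 and 152 ± 35.7 CPM, were detected in all 8 libraries. Of 18 spikelet and floral organ identity genes, 7 had no UMI in any of the 8, among them OsMADS1, OsMADS3, OsMADS7 and OsMADS58.

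Across all loci, 444 of 7406 tested passed the threshold, an adjusted p under 0.05, which is 6.00% of those tested. Of these, 255 were higher at R4 (3.44%) and 189 lower (2.55%). The median log2 fold change, R4 minus R2, was 1.38 among the higher loci and -1.66 among the lower ones, against -0.04 over all tested loci. With loci that had 0 UMIs in a whole group taken at their bound against 3 counts over that group, the medians were 1.38 and -1.64. On that scale the change was at least 2-fold in 172 higher and 154 lower loci, at least 4-fold in 83 and 62, and at least 8-fold in 41 and 18. The fit is shared by all 35 libraries, and 1481 loci, the called ones included, had an unadjusted p under 0.05. The count rested on the number of R4 libraries: without R4 replicate 2, 3 or 4 it was 253, 201 and 280. Without R2 replicate 1, the library that stood apart, 331 loci were called (193 higher and 138 lower), and 297 of the 444 kept their call. With upper quartile scaling the split turned to 213 higher and 233 lower loci, and with a filter at a mean of 10 counts to 179 and 188. Without R2 replicates 4 and 5 it was 214 and 208.

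**Figure D1:**
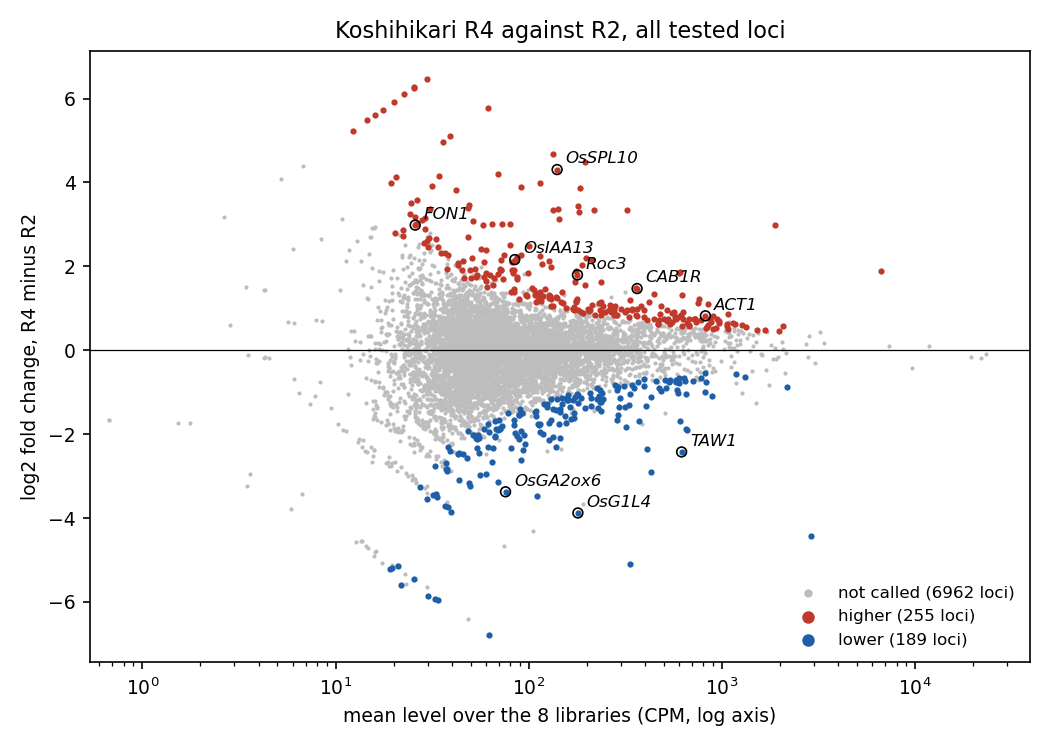
Log2 fold change of R4 minus R2 against mean level in CPM (UMIs scaled to library size, log axis) for the tested loci, with 255 loci called higher in red, 189 called lower in blue and 6962 not called in grey. Ringed points are 9 named list genes. The called loci reach above 6 and below -6 on the log2 scale, most of the extremes at low levels, where loci had 0 UMIs in 1 group and the fitted value is no bound; 1 locus with no UMI in the 8 libraries is not drawn.

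In 213 of the 255 higher loci all R4 libraries lay above all R2 libraries, and in 132 of the 189 lower loci all R4 libraries lay below. Over all tested loci such a separation was found upward in 489 (6.60%) and downward in 381 (5.14%). Loci called higher held 12.1%, 12.1% and 11.3% of the tested UMIs in the R4 libraries, against 4.67% to 6.14% in the R2 libraries. Loci called lower held 2.31%, 2.24% and 2.44% in R4, against 4.73% to 7.93% in R2, the highest value being that of R2 replicate 1. With loci ranked by mean CPM and cut into 4 bins of equal size, 3.62%, 2.81%, 4.27% and 13.3% were called from the lowest bin to the highest. With the same bounds, the median size of a called change was 2.87 in the lowest bin and 1.02 in the highest, on the log2 scale. Between 5.29% and 6.99% of tested loci were called on each of the 12 chromosomes.

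The called locus with the most UMIs, on chromosome 1, had 14611, 12438 and 9382 CPM in R4 and 2858, 3115, 2530, 4142 and 3906 CPM in R2. Every R4 library was more than 2-fold above every R2 library, and the locus rose 3.69-fold (log2 fold change 1.88, SE 0.234, adjusted p = 6.7e-06). It was also higher in NIL-Gn1 (1.57, adjusted p = 1.06e-05). The called locus next in UMIs, also on chromosome 1, had 142, 246 and 232 CPM in R4 and 18161, 2136, 1683, 126 and 393 CPM in R2. The groups overlapped and R2 replicate 1 carried most of its counts: the log2 fold change was -4.43 (SE 1.1, adjusted p = 0.0136) and -2.44 (adjusted p = 0.0705) without that library. The call was likewise lost without R4 replicate 2, 3 or 4 (adjusted p = 0.0712, 0.0669 and 0.0579). Left out of the sum, this locus lowers the share of the loci called lower in R2 replicate 1 to 6.3%, with 4.7% to 5.49% in the other R2 libraries and 2.21% to 2.41% in R4.

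A further set was seen in 1 group only: 9 loci called higher had no UMI in any R2 library, and they had 9 to 22 UMIs over the R4 libraries. Against 3 counts over the R2 group they were at least 5.21-fold to 12.7-fold higher. Another 9 loci called lower had no UMI in any R4 library and 14 to 44 UMIs over R2, which is at least 2.69-fold to 8.45-fold lower against 3 counts over the R4 group. Such a 0 allows up to 9.04 CPM over the pooled R4 libraries and 5.21 CPM over the pooled R2 libraries, and these limits cover counting error only.

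Gene lists of 386 rice genes in 30 groups were used to read the change by function, and 205 of the genes used were tested. Of these, 14 were higher and 13 lower at R4, together 13.2% of the tested list genes beside 6.00% of all tested loci. The lists were drawn up with earlier results of these data known, so this share is not independent evidence. The share called also depended on level, at 13.3% in the bin of highest CPM, and the levels of list genes and other loci were not matched. The 2 shares therefore do not show that list genes changed more often than other loci of like level. In whole tissue, fewer cells of a type and less RNA per cell cannot be told apart, which holds for all the groups of genes that follow.

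Of 10 members of the ALOG family, 6 were tested and 5 of them fell (TAW1, OsG1L1, OsG1L2, OsG1L3 and OsG1L4), none higher, with a median log2 fold change of -1.56 over the 6. The summed level of the family was 449, 441 and 874 CPM in R4, against 1722, 2254, 2222, 2203 and 1939 CPM in R2, so that the groups did not overlap. Such a separation of summed levels was not particular to this family. Flowering time and clock genes (997 to 1118 CPM in R4, 1286 to 1869 in R2) and Aux/IAA genes (1425 to 1648, 1771 to 2050) were lower without overlap. YABBY genes (899 to 996, 626 to 879) and sugar metabolism genes (3924 to 4802, 3063 to 3409) were higher without overlap. TAW1 had 132, 82.0 and 288 CPM in R4 and 696, 1074, 949, 934 and 787 CPM in R2. Its highest R4 library, replicate 4, remained below its lowest R2 library, and it was 5.37-fold lower (log2 fold change -2.42, SE 0.236, adjusted p = 1.76e-14). OsG1L4 had 0, 0 and 55.3 CPM in R4, all of it in replicate 4, and 171, 295, 286, 377 and 253 CPM in R2. That is 5 UMIs over R4 and 137 over R2, a ratio of R2 over R4 of 15.8 (95% counting interval 6.60 to 49.4), and a log2 fold change of -3.88 (SE 0.657, adjusted p = 0.000225). The ratio was 10.3 without R4 replicate 3, and without R4 replicate 4 OsG1L4 was at least 17.9-fold lower, against 3 counts over the R4 group.

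OsG1L1 stood at 142, 164 and 177 CPM in R4 and at 330 to 496 CPM in R2 (median 418), which is 2.56-fold lower (log2 fold change -1.36, SE 0.269, adjusted p = 0.000321). OsG1L2 stood at 132, 103 and 144 CPM in R4 and at 248 to 378 CPM in R2 (log2 fold change -1.23, SE 0.306, adjusted p = 0.00587). OsG1L3 stood at 21.9, 51.3 and 66.4 CPM in R4 and at 110 to 205 CPM in R2 (log2 fold change -1.77, SE 0.45, adjusted p = 0.00693). None of these 3 overlapped between the groups, yet the OsG1L2 call was lost without R4 replicate 3 (adjusted p = 0.0671) and the OsG1L3 call without R4 replicate 2 (adjusted p = 0.0846). TH1, an ALOG gene of lemma and palea development, was not called at 57.9 ± 68 CPM in R4 and 27.4 ± 22.5 CPM in R2. G1, which specifies the sterile lemma, had 0 UMIs over R4 and 3 over R2, OsG1L7 had none in the 8 libraries, and OsG1L8 and OsG1L9 had 4 and 3 in all, so these were not tested.

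**Figure D2:**
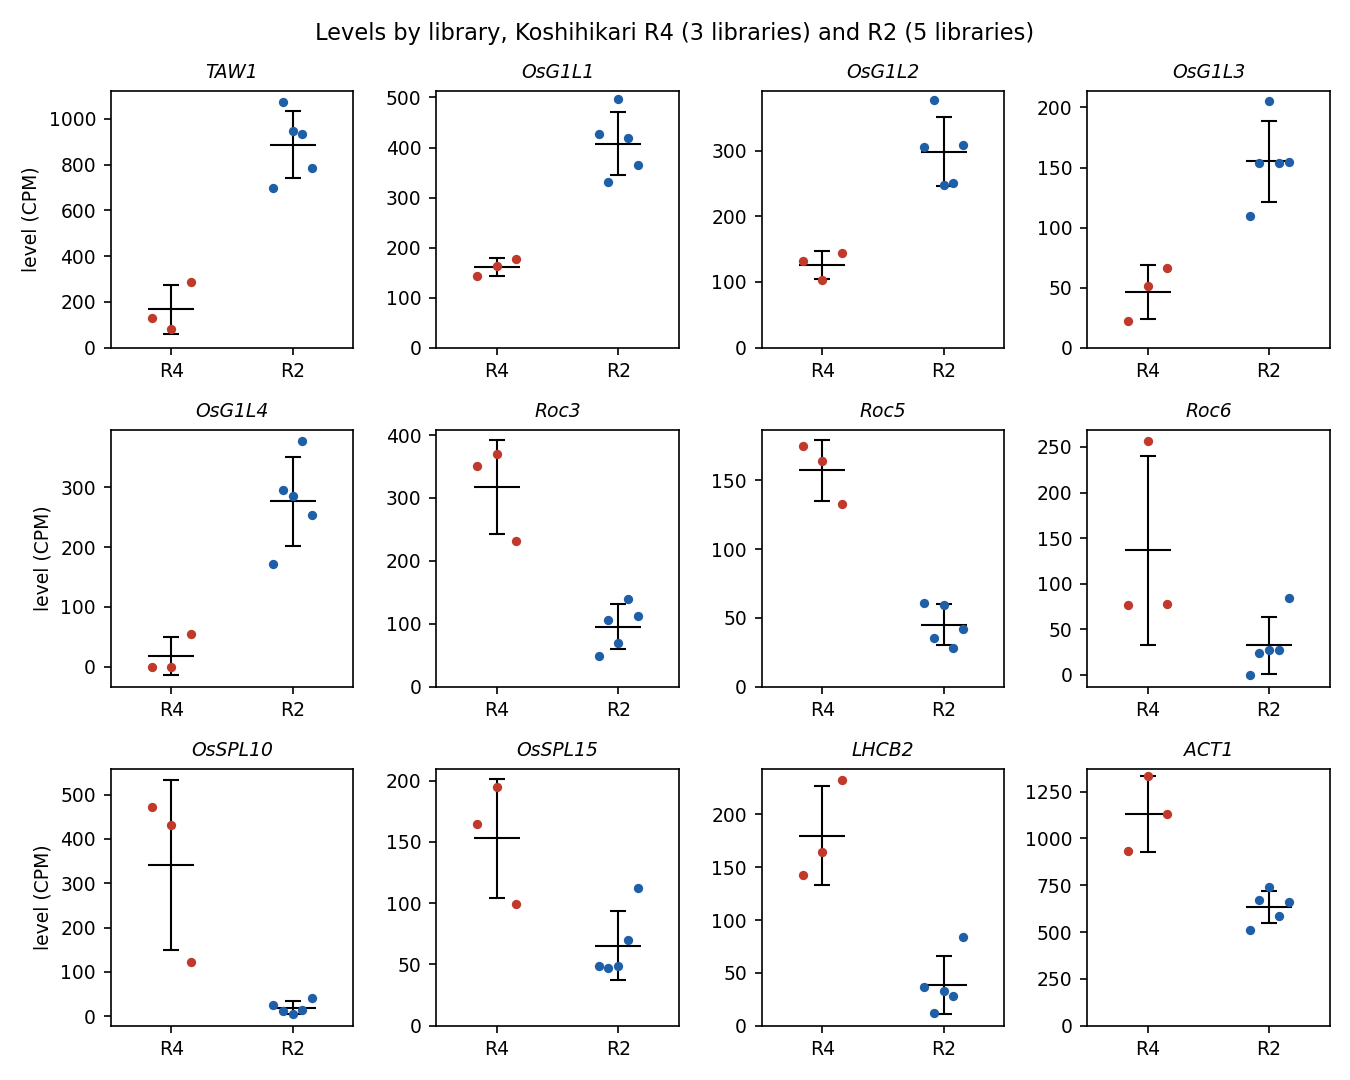
Level in CPM of 12 called list genes in each library, R4 on the left (3 points) and R2 on the right (5 points), with the mean and SD in black. The 5 ALOG genes, TAW1 to OsG1L4, lie lower in all R4 libraries than in any R2 library, while Roc3, Roc5, OsSPL10, LHCB2 and ACT1 lie higher, and for Roc6 and OsSPL15 the groups overlap.

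Among 18 SPL genes, 12 were tested, 2 rose and 10 were not called. OsSPL10, known to act in trichome formation, had 471, 431 and 122 CPM in R4 and 24.4, 11.8, 5.39, 13.9 and 42.1 CPM in R2. The lowest R4 library, replicate 4, was still above every R2 library. From 96 UMIs over R4 and 8 over R2, the ratio of R4 over R2 was 20.8 (95% counting interval 10.2 to 49.6), with a log2 fold change of 4.31 (SE 0.645, adjusted p = 5.61e-05). OsSPL15 had 164, 195 and 99.6 CPM in R4 and 48.9, 47.2, 48.5, 69.7 and 112 CPM in R2. R4 replicate 4 overlapped with R2 replicate 5, and the call (log2 fold change 1.30, SE 0.377, adjusted p = 0.0224) was lost without R4 replicate 2 (0.0796) or 3 (0.16) or R2 replicate 3 (0.0708). OsSPL14, the IPA1 gene of panicle branching, stood at 240 ± 76 CPM in R4 and 248 ± 47.3 CPM in R2, and OsSPL13 at 845 ± 266 and 724 ± 225 CPM, neither called.

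Of the branch and axillary meristem regulators, 6 of 15 were tested and 1 rose, the gene listed as DEP1, a G-protein gamma subunit that governs panicle density. It had 252, 133 and 221 CPM in R4 and 85.5, 82.6, 70.1, 83.7 and 84.3 CPM in R2, with no overlap. The log2 fold change was 1.33 (SE 0.37, adjusted p = 0.0153), a call lost without R4 replicate 2 (0.114) or R4 replicate 4 (0.0661). RFL, DST and OsER1 of the same list were not called, with log2 fold changes of 0.17 (SE 0.333), 0.19 (SE 0.283) and 0.09 (SE 0.285). Of 12 tested meristem maintenance and homeobox genes, 1 rose: FON1, the receptor kinase that limits floral meristem size. It had 43.8, 123 and 0 CPM in R4 and 0 to 14.1 CPM in R2, and the R4 library at 0 lay at the bottom of the R2 range. With 16 UMIs over R4 and 3 over R2 the ratio was 9.26 (95% counting interval 2.65 to 49.6; log2 fold change 2.98, SE 0.971, adjusted p = 0.0466). Without R2 replicate 3 it was 5.89, and without R4 replicate 3 it was 3.56 (0.602 to 24.3) and could not be tested, and the call was lost without R4 replicate 2 (0.073) or R2 replicate 1 (0.091), 2 (0.0528) or 3 (0.139). OSH1 was not called, with a log2 fold change of -0.36 (SE 0.333). Over the 12 tested genes the median log2 fold change was -0.41, opposite in sign to FON1. The summed level of the list was 1980 to 2083 CPM in R4 and 2321 to 2984 CPM in R2, lower at R4 without overlap.

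Of 8 epidermal HD-ZIP IV genes, the Roc genes that are expressed in the outermost cell layer, 5 were tested, 3 rose and none fell. Their summed level was 1074, 1415 and 819 CPM in R4 and 391, 389, 415, 669 and 562 CPM in R2, so that every R4 library was above every R2 library. The summed levels of YABBY and sugar metabolism genes, lists without a called gene, were separated in the same direction. Roc3 had 351, 369 and 232 CPM in R4 and 48.9, 106, 70.1, 139 and 112 CPM in R2, and it was 3.47-fold higher (log2 fold change 1.80, SE 0.315, adjusted p = 3.45e-05). Roc5, known for its part in leaf rolling, had 175, 164 and 133 CPM in R4 and 27.9 to 61.1 CPM in R2 (log2 fold change 1.71, SE 0.464, adjusted p = 0.0136), and was not called without R4 replicate 2 (0.065) or 3 (0.0649). Roc6 had 76.7, 256 and 77.4 CPM in R4 and 0, 23.6, 27.0, 27.9 and 84.3 CPM in R2 (log2 fold change 2.14, SE 0.512, adjusted p = 0.00358). R2 replicate 5 lay above 2 of the 3 R4 values, and without R4 replicate 3 the Roc6 change was 1.30 (adjusted p = 0.275). Roc1 and Roc2 were not called, at 210 ± 45.2 and 218 ± 44.9 CPM in R4 against 138 ± 70.8 and 163 ± 37.7 CPM in R2.

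Of 15 genes of photosynthesis, kept as markers of green tissue, 11 were tested, 4 rose, none fell and 7 were not called. The summed level was 1337, 1907 and 2500 CPM in R4 and 672, 614, 788, 628 and 1237 CPM in R2, where R2 replicate 5 came close to the lowest R4 library. The gene listed as LHCB2 had 142, 164 and 232 CPM in R4 and 36.6, 11.8, 32.4, 27.9 and 84.3 CPM in R2 (log2 fold change 2.26, SE 0.541, adjusted p = 0.00587). CAB1R had 417, 492 and 940 CPM in R4 and 126 to 297 CPM in R2, with a log2 fold change of 1.47 (SE 0.433, adjusted p = 0.0411). Those listed as LHCB6 and LHCA1 rose by 1.70 (SE 0.47, adjusted p = 0.0144) and 1.83 (SE 0.506, adjusted p = 0.0146) on the log2 scale. For LHCB6 the groups overlapped, with R4 replicate 2 at 76.7 CPM and R2 replicate 5 at 84.3 CPM.

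The LHCB2 call was kept with each library left out, though over all alternatives its adjusted p reached 0.0496. That of CAB1R was lost without R2 replicate 1, 2, 4 or 5 (adjusted p = 0.0528, 0.0776, 0.0712 and 0.0552) or R4 replicate 3 or 4 (0.0712 and 0.265). LHCB6 was not called without R4 replicate 3 (0.0938) or 4 (0.0793), nor was LHCA1 (0.0931 and 0.0624). The small subunit of Rubisco, which defines photosynthetic leaf tissue, had few UMIs: its 3 listed loci had 0, 10 and 1 over R4 and 0, 2 and 0 over R2, more in R4 as for the called genes, and were not tested. LHCB5 and CAB2R, with 229 ± 18 and 240 ± 76.3 CPM in R4 and 168 ± 62.3 and 99.7 ± 81.3 CPM in R2, were not called. Members of the chlorophyll-binding family are alike in sequence, and reads may be split between them. The part that more green or more epidermal tissue had in the other changes was not tested.

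Among gibberellin genes, 2 of inactivation fell. Of 21, 6 were tested and 2 fell, both GA 2-oxidases, enzymes that inactivate gibberellin. The gene listed as OsGA2ox6 had 0, 10.3 and 22.1 CPM in R4 and 24.4, 189, 151, 126 and 84.3 CPM in R2. All R4 libraries were below all R2 libraries, and the counts, 3 UMIs over R4 and 61 over R2, gave a ratio of R2 over R4 of 11.7 (95% counting interval 3.82 to 58.4; log2 fold change -3.37, SE 0.704, adjusted p = 0.000878). That ratio was 23.9 (4.13 to 958) without R4 replicate 4, which leaves 1 UMI over R4, and 7.86 (2.56 to 39.1) without R4 replicate 2. The gene listed as OsGA2ox1 had 0, 0 and 11.1 CPM in R4 and 0, 70.8, 86.3, 13.9 and 56.2 CPM in R2, so that the groups overlapped at R2 replicate 1. Its ratio of R2 over R4 was 15.6 (2.56 to 637), from 1 UMI over R4 and 27 over R2, with a log2 fold change of -3.54 (SE 1.06, adjusted p = 0.0303). It was 9.97 without R2 replicate 3 and 10.1 without R4 replicate 3, and without R4 replicate 4, which held the UMI, the gene was at least 3.52-fold lower against 3 counts over the R4 group. The OsGA2ox1 call was lost without R4 replicate 2 (0.129) or 3 (0.143) or R2 replicate 2 (0.0546) or 3 (0.127). A further GA 2-oxidase, OsGA2ox8, had 11.0, 10.3 and 44.3 CPM in R4 and 0 to 147 CPM in R2 and was not called (log2 fold change -1.88, SE 0.870, adjusted p = 0.216). OsGA20ox1, which makes gibberellin, the receptor GID1 and the DELLA repressor SLR1 were not called, at 301 ± 92.6, 154 ± 71.5 and 191 ± 45.7 CPM in R4 and 364 ± 110, 279 ± 208 and 196 ± 43.7 CPM in R2.

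Aux/IAA genes, whose proteins repress auxin-responsive transcription, moved in both directions. Of 30, 13 were tested, 1 rose and 2 fell. OsIAA13 had 197, 185 and 99.6 CPM in R4 and 12.2, 35.4, 21.6, 13.9 and 112 CPM in R2 (log2 fold change 2.16, SE 0.468, adjusted p = 0.00106), with R2 replicate 5 within the R4 range. OsIAA30 had 43.8, 41.0 and 99.6 CPM in R4 and 256, 236, 302, 69.7 and 98.4 CPM in R2 (log2 fold change -1.75, SE 0.405, adjusted p = 0.0025). Here R2 replicates 4 and 5 fell in the R4 range, and the other R2 libraries were above it. OsIAA10 had 87.7, 71.8 and 122 CPM in R4 and 201 to 225 CPM in R2 (log2 fold change -1.19, SE 0.334, adjusted p = 0.0167), and was not called without R4 replicate 2 (0.0761) or 3 (0.121). None of 17 tested auxin response factors was called, the DNA-binding partners of these repressors. OsARF4 was at 930 ± 55.2 CPM in R4 and 1231 ± 125 CPM in R2 (log2 fold change -0.40, SE 0.17), and OsARF24 at 646 ± 149 and 919 ± 118 CPM (-0.51, SE 0.181).

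Other called list genes belong to the clock, to 14-3-3 proteins and to growth and water transport. OsPRR73, a pseudo-response regulator of the clock, had 65.8, 133 and 122 CPM in R4 and 142 to 337 CPM in R2 (log2 fold change -1.07, SE 0.346, adjusted p = 0.0465). It was no longer called without R4 replicate 2, 3 or 4 (0.249, 0.0779 and 0.0906) or R2 replicate 3 or 5 (0.132 and 0.106). OsGI, another clock gene, had 32.9, 256 and 177 CPM in R4 and 365 to 680 CPM in R2, without overlap, but was not called (log2 fold change -1.76, SE 0.56, adjusted p = 0.0597). GF14a, a 14-3-3 gene of the family that bridges florigen and its partner FD, had 515, 472 and 520 CPM in R4 and 618 to 1180 CPM in R2 (log2 fold change -0.72, SE 0.197, adjusted p = 0.0129), and lost its call without R4 replicate 2 (0.0508) or 3 (0.0821) or R2 replicate 2 (0.0917). The other 4 of the family were not called.

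Of 7 tested expansins, proteins that loosen the cell wall, OsEXPA5 fell and OsEXPA4 rose. OsEXPA5 had 219, 123 and 177 CPM in R4 and 293 to 578 CPM in R2, with no overlap (log2 fold change -1.32, SE 0.267, adjusted p = 0.000436). OsEXPA4 had 76.7, 144 and 33.2 CPM in R4 and 0 to 42.1 CPM in R2, with R4 replicate 4 inside the R2 range (log2 fold change 1.91, SE 0.601, adjusted p = 0.038). The OsEXPA4 call was lost without R4 replicate 2 or 3 (0.0712 and 0.372) or R2 replicate 1, 2 or 3 (0.0721, 0.0883 and 0.0554). OsPIP2-1, a plasma membrane aquaporin, had 395, 369 and 343 CPM in R4 and 464 to 897 CPM in R2 (log2 fold change -0.76, SE 0.201, adjusted p = 0.00931), lost without R4 replicate 3 (0.0545) or 4 (0.0624) or R2 replicate 2 (0.0758). The actin gene ACT1, often taken as a constant reference, had 932, 1333 and 1128 CPM in R4 and 513, 673, 739, 586 and 660 CPM in R2. It was 1.77-fold higher (log2 fold change 0.82, SE 0.174, adjusted p = 0.000789) with no overlap, while eIF4A, at 1121 ± 143 CPM in R4 and 1065 ± 512 CPM in R2, and GAPC1, at 774 ± 138 and 618 ± 124 CPM, were not called.

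**Figure D3:**
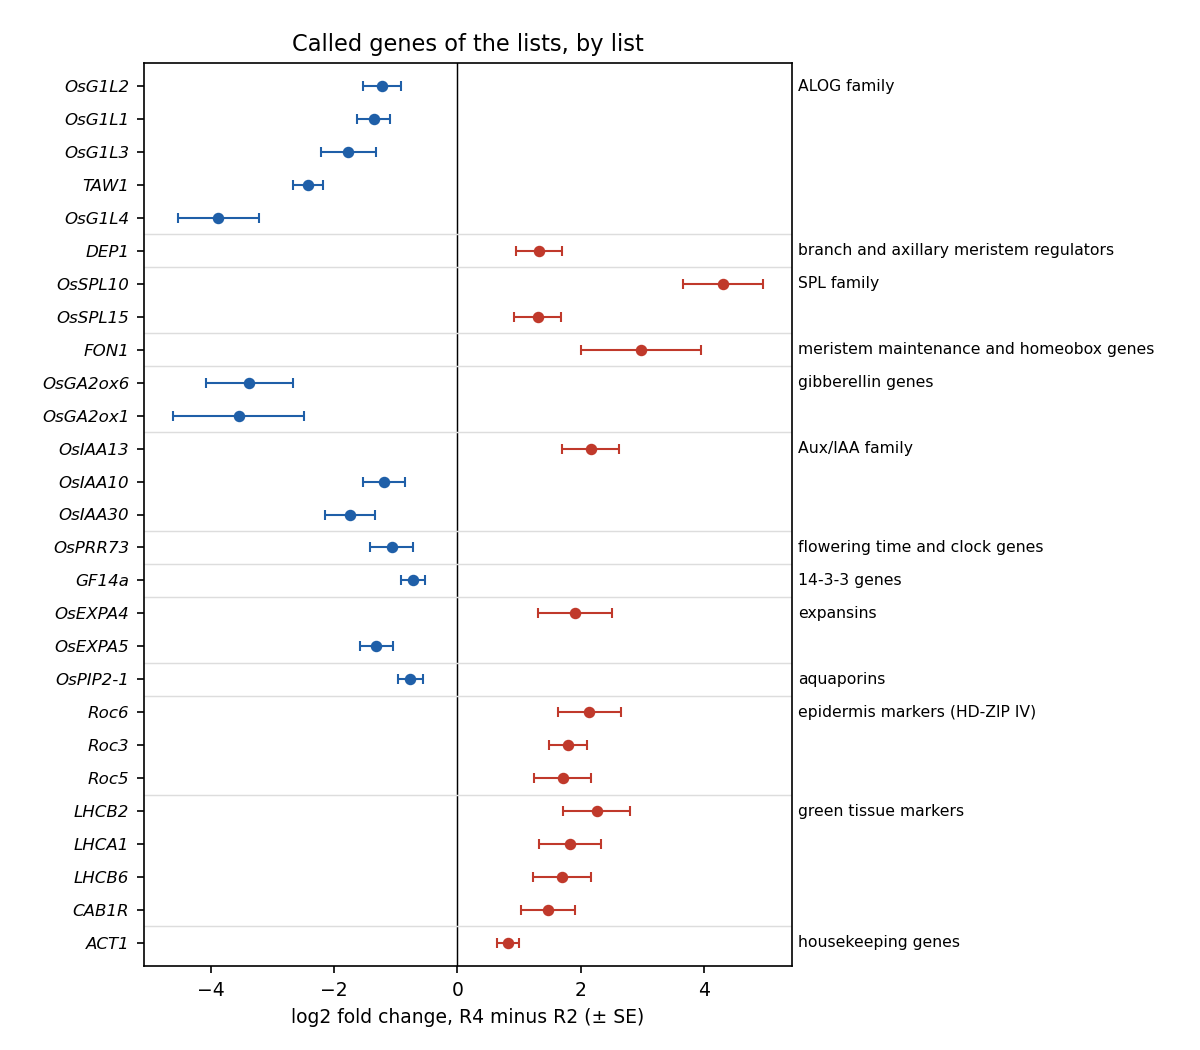
Log2 fold change of R4 minus R2 with its SE for the 27 called list genes, grouped by list, higher in red and lower in blue. The 5 ALOG genes and both GA 2-oxidases lie left of 0, and the 3 Roc genes and 4 green tissue genes lie right of it.

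Many lists held no called gene. Among the AP1/FUL-like and other inflorescence MADS-box genes 0 of 6 tested were called. OsMADS14 had 296, 369 and 199 CPM in R4 and 85.5, 106, 27.0, 139 and 155 CPM in R2, without overlap, yet its adjusted p was 0.0714 (log2 fold change 1.67, SE 0.553). OsMADS15 had 482, 595 and 409 CPM in R4 and 82.6 to 450 CPM in R2 (1.40, SE 0.626, adjusted p = 0.202), with R2 replicate 5 inside the R4 range. In the YABBY family of lateral organ genes 0 of 4 were called, and OsYABBY5 stood at 532 ± 67.6 CPM in R4 and 351 ± 61.2 CPM in R2 (0.61, SE 0.222, adjusted p = 0.079). Of the spikelet and floral organ genes 0 of 4 were called, OsMADS32 being at 146 ± 80.3 CPM in R4 and 61.8 ± 42.2 CPM in R2 (1.40, SE 0.49, adjusted p = 0.0718). The median log2 fold change over these 4 was -0.51, so OsMADS32 does not stand for the list. The summed level of the list overlapped between the groups, at 365 to 636 CPM in R4 and 403 to 531 CPM in R2.

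None of the 18 tested genes of DNA replication and cell division was called, with a median log2 fold change of 0.01. PCNA, the sliding clamp of replication, was at 376 ± 9.71 CPM in R4 and 327 ± 75.7 CPM in R2. Likewise 0 of 9 histone H4 loci, whose near-identical copies make single values uncertain, and 0 of 13 growth-regulating factors and coactivators were called. So were 0 of 9 jasmonate genes, 0 of 4 cytokinin genes, 0 of 4 brassinosteroid genes and 0 of 3 auxin transport and synthesis genes. Calls were also absent in 2 TCP genes, 2 sugar metabolism genes and 5 primary wall cellulose synthases. In the list of G-protein subunits 0 of 2 were called, while DEP1, called higher, was counted among the branch regulators. Heat and low-oxygen stress markers had 0 of 3 called, and their summed level was 636 to 1007 CPM in R4 and 635 to 1004 CPM in R2. A missing call does not show that a gene was unchanged. In counts simulated with the fit's own trend of spread, and no library set apart, 20 of 100 2-fold and 54 of 100 4-fold changes were found. Of 7406 simulated loci 6475 passed the filter, and changed loci that did not pass it counted as missed. The shares belong to that simulation and need not hold for these libraries.

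Outside the lists no table pairs the locus names with gene names, and those with the smallest p are given by identifier. LOC_Os03g47940 had 723, 543 and 232 CPM in R4 and 43.2 to 56.2 CPM in R2, and was 10.1-fold higher (log2 fold change 3.33, SE 0.344, adjusted p = 4.48e-13). LOC_Os03g53950 had 373, 308 and 266 CPM in R4 and 11.8 to 83.7 CPM in R2 (3.12, SE 0.401, adjusted p = 5.3e-09). In both, R4 and R2 libraries lay far apart. LOC_Os05g01060 had 164, 113 and 188 CPM in R4 and 394 to 611 CPM in R2 (-1.68, SE 0.259, adjusted p = 1.53e-06), and LOC_Os05g45430 had 121, 92.3 and 155 CPM in R4 and 407 to 507 CPM in R2 (-1.83, SE 0.314, adjusted p = 4.86e-05).

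Some called loci were neighbours, within 5 entries of each other in the table's order, and a few such runs are given as examples. In a run of 3 loci on chromosome 10 the UMIs over R4 were 94, 47 and 11, against 6, 4 and 0 over R2. All 3 were called higher here, and also in NIL-Gn1 and in R5 against R1 of Koshihikari. In another run of 3, on chromosome 4, all were lower, with 21, 28 and 107 UMIs over R4 and 119, 110 and 327 over R2. In NIL-Gn1 their log2 fold changes were -0.27, -0.06 and -0.72 (adjusted p = 0.709, 0.962 and 0.0189). In R5 against R1 of Koshihikari they were -0.42, -0.60 and -0.65 (adjusted p = 0.461, 0.26 and 0.0477). On chromosome 8, 2 neighbouring loci were also lower, with 32 and 30 UMIs over R4 and 151 and 120 over R2. Neither was called in those other comparisons. Neighbouring or overlapping annotations can share reads, and this was not tested. Whether called loci on different chromosomes share reads was not tested either.

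The called loci were then followed in comparisons of other libraries. These enter neither side of R4 against R2, but they are in the same fit and share its filter, scaling and estimate of spread. In NIL-Gn1, the mean of R4 (1 library, whose variation is taken to be that of the remaining groups) and R5 (2 libraries) was set against R2 (8 libraries), where 218 of 7406 loci were called (2.94%), 165 higher (2.23%) and 53 lower (0.716%). Of the 255 loci higher in Koshihikari R4, 204 were higher in NIL-Gn1 as well (80%, against 45.1% of all tested loci), and 86 were called higher there (33.7%). Of the 189 lower loci, 156 were lower in NIL-Gn1 (82.5%, against 54.8% of all), and 18 were called lower (9.52%). None was called in the opposite direction. The median log2 fold change in NIL-Gn1 was 0.52 for the higher loci and -0.41 for the lower, beside 1.38 and -1.66 in Koshihikari. The loci were selected on the Koshihikari values, which favours larger changes there, and the NIL-Gn1 value averages R4 with R5. These medians therefore do not measure whether the step is weaker in NIL-Gn1. The count of 218 was 77 without NIL-Gn1 R5 replicate 1.

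Within Koshihikari, R5 against R1 also shares no library with R4 against R2, and 648 loci were called (8.75%), 405 higher (5.47%) and 243 lower (3.28%). There 239 of the 255 loci were higher (93.7%, against 46.8% of all) and 142 called so (55.7%), while 180 of the 189 were lower (95.2%, against 53.2% of all) and 66 called so (34.9%). Among loci that changed at least 4-fold with those bounds, 50 of 83 higher ones were called higher in NIL-Gn1 (60.2%) and 4 of 62 lower ones were called lower (6.45%), and in R5 against R1 it was 64 (77.1%) and 15 (24.2%). The count of 648 was 390 without Koshihikari R5 replicate 2.

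**Figure D4:**
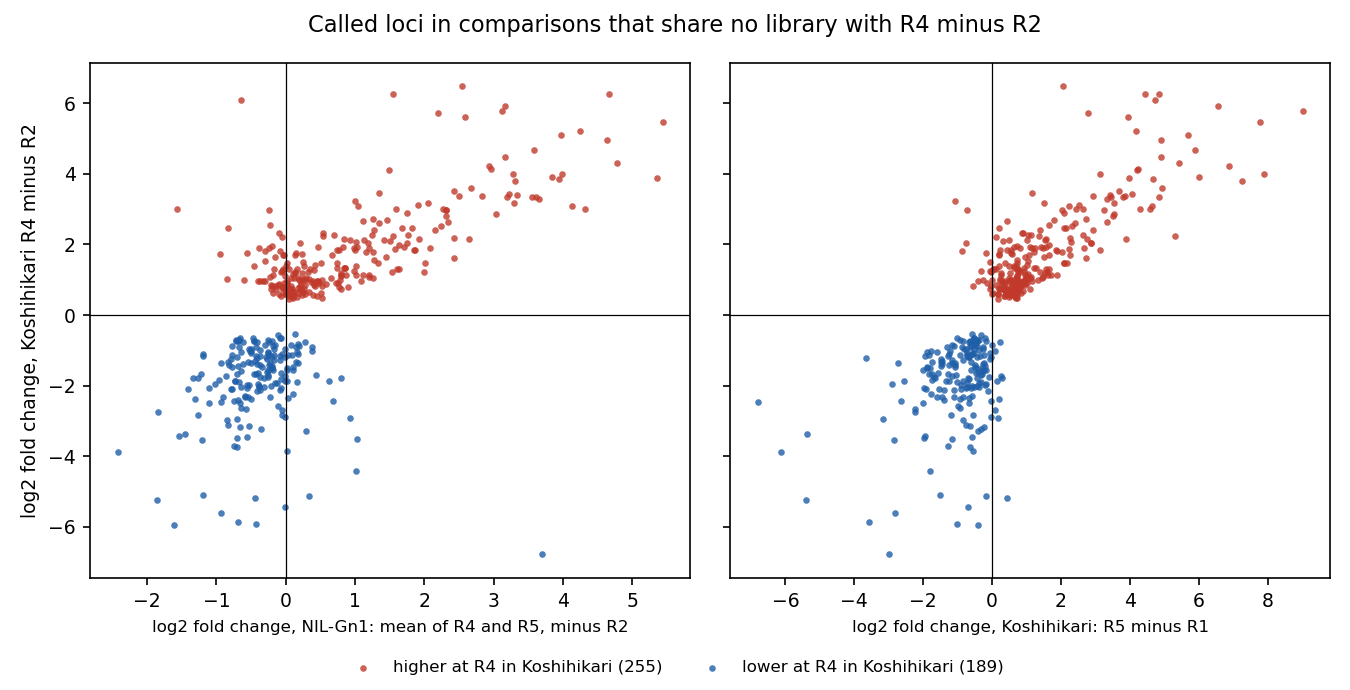
Log2 fold change of R4 minus R2 in Koshihikari (vertical) for the 255 loci called higher (red) and the 189 called lower (blue), against that in NIL-Gn1, mean of R4 and R5 minus R2 (left), and in Koshihikari R5 minus R1 (right). Most higher loci lie right of 0 in both panels, 204 and 239 of them, and most lower loci lie left of 0, 156 and 180.

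OsSPL10 changed most among the named list genes and did so in both lines. It averaged 13.9 ± 13 CPM at R1 (SD, n = 5), 19.5 ± 14.4 at R2 (n = 5), 341 ± 191 at R4 (n = 3) and 569 ± 200 at R5 (n = 3) in Koshihikari. In NIL-Gn1 it was 30.2 ± 21.8 CPM at R1 (n = 8), 19.0 ± 14.8 at R2 (n = 8), 601 in the R4 library and 502 ± 344 at R5 (n = 2), and the late libraries were higher than R2 there (log2 fold change 4.79, SE 0.429, adjusted p = 2.27e-09). OsIAA13 and Roc6 were higher in NIL-Gn1 too, by 1.92 (SE 0.353, adjusted p = 4.63e-05) and 2.64 (SE 0.403, adjusted p = 5.81e-07), as were Roc3 (1.26, SE 0.271, adjusted p = 0.000853), OsEXPA4 (2.09, SE 0.394, adjusted p = 7.72e-05), LHCB2 (1.77, SE 0.435, adjusted p = 0.00888) and ACT1 (0.52, SE 0.155, adjusted p = 0.0376). In all, 7 of the 14 list genes that rose in Koshihikari were called higher in NIL-Gn1. The other 7 were not called there, with log2 fold changes of 0.74 for DEP1, 0.67 for LHCB6, 0.52 for CAB1R, 0.16 for OsSPL15, 0.13 for Roc5, -0.08 for LHCA1 and -0.24 for FON1, so 3 of the 4 green tissue genes are among them.

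Among the ALOG genes, OsG1L4 fell in NIL-Gn1 by 2.43 (SE 0.429, adjusted p = 0.000278), OsG1L1 by 0.93 (SE 0.213, adjusted p = 0.00203) and TAW1 by 0.74 (SE 0.18, adjusted p = 0.00503) on the log2 scale. OsG1L2 (-0.41, SE 0.232) and OsG1L3 (-0.32) were not called there. In R5 against R1 of Koshihikari all 5 were called lower, with log2 fold changes of -6.13 for OsG1L4, -3.66 for OsG1L2, -2.73 for OsG1L1, -2.65 for TAW1 and -1.65 for OsG1L3. OsGA2ox6 was lower in NIL-Gn1 (-1.45, SE 0.397, adjusted p = 0.0209) and in R5 against R1 (-5.37, SE 0.784, adjusted p = 3.14e-07), and OsEXPA5 in both (-0.84 and -1.47). In all, 5 of the 13 list genes that fell in Koshihikari were called lower in NIL-Gn1. Besides OsG1L2 and OsG1L3, those not called there were OsGA2ox1 (-1.21), OsPRR73 (-0.50), OsPIP2-1 (-0.41), OsIAA30 (-0.37), OsIAA10 (-0.28) and GF14a (-0.19).

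**Figure D5:**
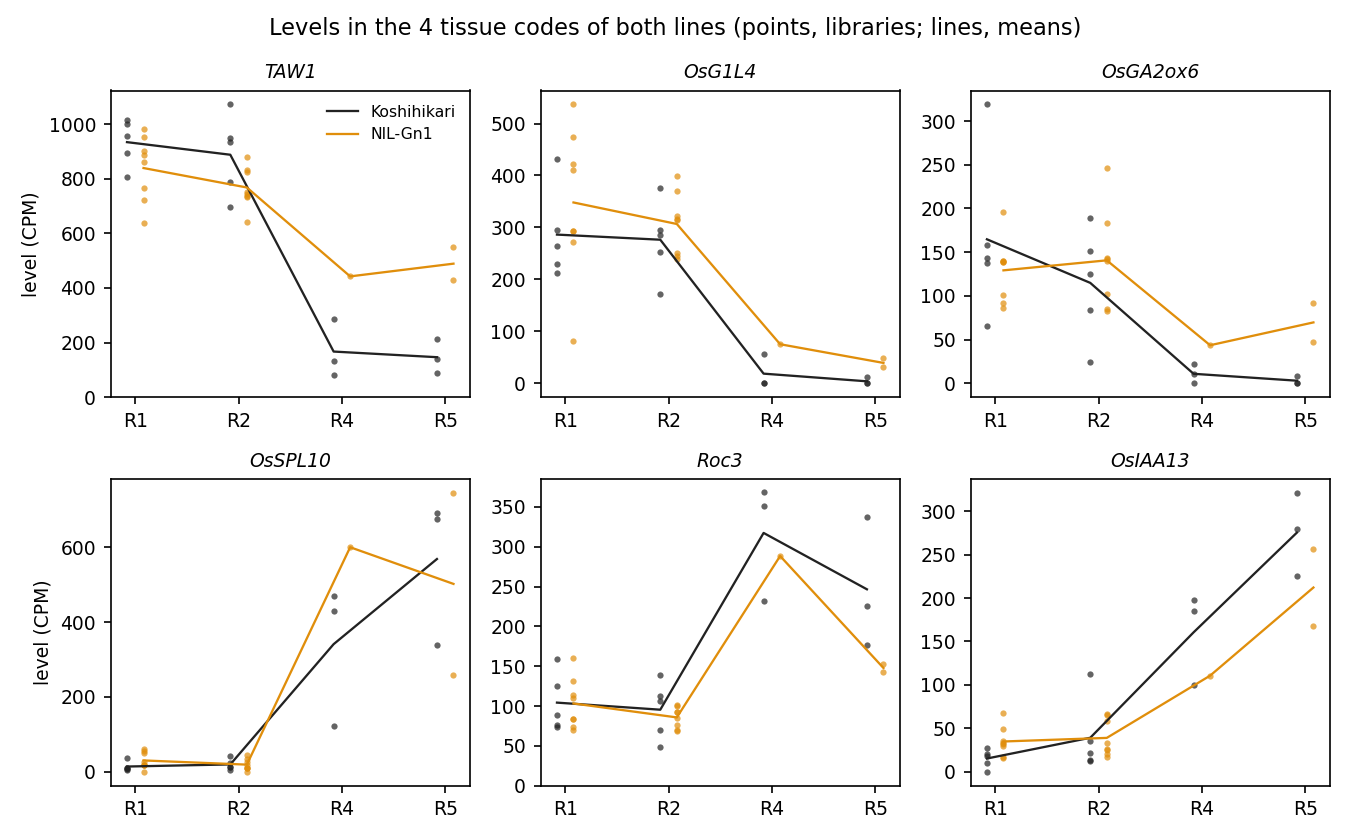
Level in CPM of 6 called list genes at R1, R2, R4 and R5 in Koshihikari (black) and NIL-Gn1 (orange), each point a library and each line through the means. The genes were picked among those called for R4 against R2, so a large step from R2 to R4 in Koshihikari was fixed by the choice. On the CPM scale that step is the largest between neighbouring Koshihikari means. For OsIAA13 it is so narrowly, with 39.1, 160 and 275 CPM at R2, R4 and R5. TAW1 stands at 167 CPM in Koshihikari R4 and 442 CPM in the NIL-Gn1 R4 library.

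The difference of the step between the lines, R4 minus R2 in Koshihikari minus the same in NIL-Gn1, was called in 2 of 7406 loci (0.0270%), with 514 at an unadjusted p under 0.05 in edgeR and 3 called by DESeq2. NIL-Gn1 R4 has a single library, which limits this test. Of the 2, TAW1 had 167 ± 107 CPM in Koshihikari R4 and 888 ± 148 CPM in Koshihikari R2, and 442 CPM in NIL-Gn1 R4 and 768 ± 74.7 CPM in NIL-Gn1 R2, a difference in log2 fold change of -1.63 (SE 0.345, adjusted p = 0.0224). TAW1 was no longer called here without Koshihikari R4 replicate 2 (0.122) or 3 (0.264), without Koshihikari R2 replicate 2, 3 or 4 (0.0643, 0.0506 and 0.0501) or without NIL-Gn1 R2 replicate 2 or 4 (0.0518 and 0.0543). The other, LOC_Os05g01060, had 155 ± 38.5 CPM in Koshihikari R4 and 505 ± 92.8 CPM in Koshihikari R2, and 502 CPM in NIL-Gn1 R4 and 366 ± 82.3 CPM in NIL-Gn1 R2. Its difference was -2.13 (SE 0.365, adjusted p = 0.000323), and it was called under all 22 alternatives tried for this test, with a highest adjusted p of 0.0177. For OsG1L4, OsGA2ox6, OsSPL10, Roc3 and OsIAA13 the difference was not called, at -1.86 (SE 0.996), -1.67 (SE 1.03), -0.56 (SE 1.1), 0.05 (SE 0.485) and 0.74 (SE 0.701). A missed threshold does not show that the steps were equal.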

How the data were processed

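The counts deposited by the authors are raw UMI numbers, not normalized. Their table lists 55801 loci under MSU identifiers, and 24425 had at least 1 UMI. Per the labels' protocols, 100 pg of RNA per library was amplified by in vitro transcription and 11 to 15 PCR cycles. The submitters' processing notes name Bowtie2 and Subread. What each was used for, the build, the annotation and the strand setting are not given in the sources used here, so overlapping and antisense loci cannot be told apart.

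Totals were 76743 to 375071 UMIs per library. All 35 libraries entered a single edgeR 4.0.16 fit (R 4.3.3) of the counts, with the 8 groups of line and tissue as its coefficients, TMM scaling, the filterByExpr filter and the robust quasi-likelihood test. The filter kept 7406 loci with 86.7% of UMIs, and the biological coefficient of variation was 21.1%. P-values were adjusted by Benjamini-Hochberg over all tested loci in each comparison, and loci under 0.05 were called. An SE is the size of the log2 fold change divided by the square root of F. CPM were computed from tested loci only, on TMM-scaled library sizes, and ± marks the SD. Counting intervals (95%, exact, scipy 1.17.1) cover counting error only.

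The members compared and the gene lists were chosen with earlier results of these data known. Of 386 listed genes, 11 symbols that the RefSeq table (assembly ASM3414082v1) puts on another chromosome and 3 absent from the count table were left out. Of those called, 21 have the same chromosome and order there, and 6 symbols (DEP1, OsGA2ox1, OsGA2ox6, LHCB2, LHCB6 and LHCA1) rest on the list alone. Named genes are all called list members, up to 4 members per list with the highest mean CPM that were tested and not called, and, among other called loci changed at least 2-fold, the 2 higher and 2 lower of smallest p. The 2 called loci with the most UMIs and the runs of neighbours were chosen after their values were seen. The fit was also run on simulated counts of 7406 loci, drawn with its own trend of spread, of which 6475 passed the filter. There 0 of 74 calls were false, which does not give the rate of false calls in the real libraries.

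Alternatives were RLE and upper quartile scaling, keeping all loci or only those averaging 10 counts, limma-voom (limma 3.58.1) and DESeq2 1.42.0 in place of edgeR, fits of only the 8 or the 16 Koshihikari libraries, the replicate number as a block, and each library left out. R2 without replicates 4 and 5, and R2 reduced to replicates 2 and 3, were added after the data were seen. Plots used Python 3.11.15 and matplotlib 3.10.9.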

Additional observations from a re-analysis of the deposited data

Results flagged for a closer look

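Over the 5 Koshihikari R2 libraries, 33 sets of values were examined for a library far from the others, and 4 were found; about 1 in 20 sets would be marked by chance. The total of R2 replicate 3, 209653 UMIs, lay far above the other R2 totals. DEP1 was lowest in R2 replicate 3, at 70.1 CPM from 13 UMIs, against 82.6 to 85.5 CPM in the other R2 libraries. Those had 7, 7, 6 and 6 UMIs, and at such counts the mark does not show that the library differs. OsIAA13 was highest in R2 replicate 5, at 112 CPM, against 12.2 to 35.4 CPM, and LHCB6 was highest in the same library, at 84.3 CPM.

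For 2 loci the step from R2 to R4 differed between Koshihikari and NIL-Gn1 by the interaction test of edgeR. The difference in log2 fold change was -2.13 for LOC_Os05g01060 (SE 0.365, adjusted p = 0.000323) and -1.63 for TAW1 (SE 0.345, adjusted p = 0.0224). In each, all 3 Koshihikari R4 libraries were below all 5 Koshihikari R2 libraries.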

How the results depend on the processing

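Of the 27 called list genes, 11 kept their call in every alternative in which they were tested (TAW1, OsG1L1, OsG1L4, OsSPL10, OsGA2ox6, OsIAA13, OsIAA30, OsEXPA5, Roc3, LHCB2 and ACT1), 16 lost it in at least 1 of up to 20, and none changed direction. For LHCB2, ACT1 and OsIAA30 the margin was thin, with highest adjusted p of 0.0496, 0.0489 and 0.0485. The 444 calls, 255 higher and 189 lower, became 217, 121 and 96 with only the 8 libraries compared, where 2568 loci were tested; 216, 120 and 96 with those 8 and the replicate block; and 228, 124 and 104 with R2 reduced to replicates 2 and 3. Without R2 replicates 4 and 5, 422 loci were called, 214 higher and 208 lower, and 324 of the 444 kept their call. With each library left out in turn the total was 201 to 429, the higher loci 134 to 237 and the lower loci 67 to 197. The lower loci were 112 with no filter and 83 with limma-voom. DESeq2 called 323 and RLE scaling 445. With the replicate number as a block in all 35 libraries 359 were called. Deviations of same-numbered libraries had correlations of -0.0261 to -0.00807 over 3 pairs, and those of differently numbered libraries -0.0251 to 0.0413. With few UMIs at most loci this check could hardly show a pairing, so it does not decide whether the numbers pair the samples. The main fit does not use the numbers.

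The NIL-Gn1 count was 77 to 232 and the R5 against R1 count 390 to 590 with a library left out. The difference between the lines was called in 6 loci with no filter, 5 with a filter at a mean of 10 counts and 1 to 3 with a library left out. That test could not be fitted without the NIL-Gn1 R4 library. The difference in log2 total UMIs, R4 minus R2, was 0.0389, and with a library left out it was -0.0584 (without R2 replicate 5) to 0.279 (without R2 replicate 3), and -0.0559 without R2 replicate 4. The difference in loci at equal depth was -475 to -361 with a library left out, and missed the threshold without R4 replicate 4 (-385) and R2 replicate 4 (-458). The causes were not tested. Depth limits low genes most: at these totals 3 counts are about 9.04 CPM over R4 and 5.21 CPM over R2.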
